A study of Mus musculus with 24 samples.

Results

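The buccal part of the cap stage mandibular first molar germ of the mouse was compared before and after 2 days of culture. The members are all genes in the 3 libraries of the uncultured part (Cap_B) and the 3 libraries of the cultured part (Cap_B_2D), which are 6 of the 24 libraries of the series. The study cut first molar germs of ICR mice at the cap stage (embryonic day 13) and at the bell stage (embryonic day 15) with a fine needle into a lingual (tongue side) and a buccal (cheek side) part. Its question was whether the mesenchyme of each side carries its own information for making a tooth. In Cap_B_2D the buccal part was kept in vitro without its lingual counterpart, and the culture medium of these libraries is not given in the sources used here. In all groups the mesenchyme was taken from the germ parts with dispase II, an enzyme that frees it from epithelium, and total RNA was extracted with TRIzol. The animals carried no named allele, no agent was named other than the culture itself, and embryos were pooled from 3 pregnant mice. Nothing in the sources ties a library to a litter or a culture, so p-values measure only the spread between these libraries, which may be technical. Values were also set beside the uncultured buccal part at the bell stage (Bell_B, 3 libraries) and the lingual part before and after culture (Cap_L and Cap_L_2D, 3 libraries each).

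A molar germ forms from oral epithelium and from mesenchyme that derives from the cranial neural crest. At the cap stage the epithelium folds around a condensed mesenchyme, the dental papilla, and a small epithelial signalling centre, the enamel knot, secretes Sonic hedgehog, BMPs, FGFs and Wnts. The mesenchyme answers with its own BMPs, FGFs and transcription factors such as Msx1, Pax9 and Runx2, and later gives rise to the dentin-forming odontoblasts, the pulp, the periodontal ligament and the alveolar bone. An explant in culture has no blood flow, and the cut separates it from the other side of its germ.

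Each library held 21663852 to 25103228 counted read pairs in Cap_B, 30077172 to 37959311 in Cap_B_2D and 27647094 to 29921054 in Bell_B, and a level of 3 counts, used as the detection floor, corresponded to 0.0817 to 0.136 counts per 1000000 (CPM). Levels are given as CPM scaled between libraries by TMM, and a log2 change is given with its standard error. Mitochondrial genes took 2.90 to 3.01% of the counts before culture and 2.24 to 2.45% after it. Between pairs of uncultured libraries the spread was 1.34 to 1.54 times counting error (chi-square per degree of freedom), and between cultured ones 2.24 to 5.91 times. The label of dental mesenchyme was checked with 14 marker genes, all of which were detected in every group, and their summed level was 4779 to 4840.2 CPM in Cap_B, 4938 to 5062 CPM in Cap_B_2D and 4333 to 4359 CPM in Bell_B. Of these 14 markers, Vim, Bmp4 and Pdgfra were upregulated in culture, Lhx6, Dlx1 and Msx1 were downregulated, and the other 8 were not called. The sum hides falls of single members, since Vim has a high level (average log2 CPM 10.54) and rose by 0.84 on the log2 scale. The median log2 change of the list was -0.37. Without overlap between the groups, 9 members were lower and 4 higher (35.6% and 33.5% of all genes were).

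A gene was called when its adjusted p (edgeR quasi-likelihood test, Benjamini-Hochberg) was under 0.05 and its log2 change exceeded 0.5 in size. Of 21992 tested genes, 3947 (17.9%) were higher and 3651 (16.6%) were lower after culture, with a median log2 change of -0.02 over all of them. The shares of 17.9% and 16.6% are the background for the list counts below. A change of more than 4-fold was called for 802 genes upward and 509 downward. All 3 cultured libraries lay above all 3 uncultured ones for 7370 genes (33.5%) and below them for 7835 (35.6%). Groups without overlap, given for single genes below, were thus common. The plot of all tested genes shows that the large changes were not confined to genes of low level.

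**Figure D1:**
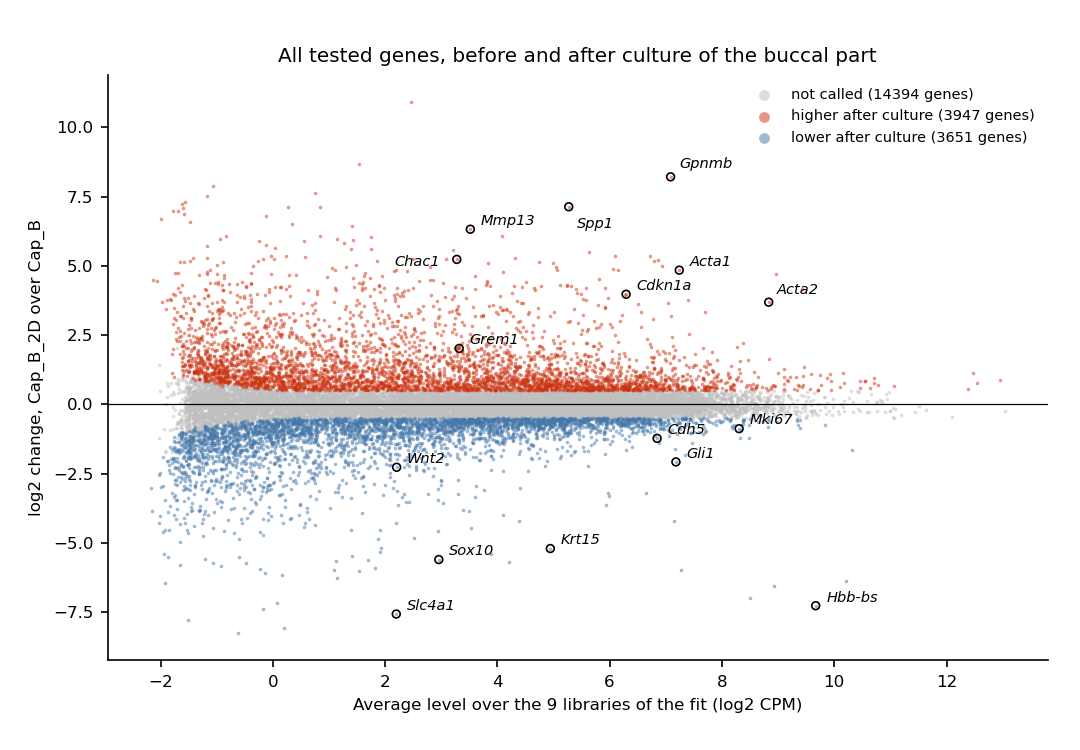
Every tested gene is a point, with its average level over the 9 libraries of the fit (log2 CPM) on the x axis and its log2 change from Cap_B to Cap_B_2D on the y axis. Red points are the 3947 genes called higher, blue points the 3651 called lower, grey points the 14394 not called. Named genes are ringed, and Gpnmb and Spp1 stand at the upper edge and Hbb-bs and Slc4a1 at the lower edge of the cloud.

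The 12 largest rises among well-expressed genes included genes known from macrophages, matrix and muscle, and others that belong to none of these. Gpnmb, a membrane glycoprotein of macrophages and osteoclasts, was at 1.497, 1.10 and 1.37 CPM in the 3 Cap_B libraries and at 389.9, 395 and 393 CPM in the 3 Cap_B_2D libraries (log2 change 8.21 ± 0.06, adjusted p = 1.79e-40). Spp1, which encodes the matrix protein osteopontin, went from 0.771, 0.886 and 0.548 CPM to 99.8, 104 and 104.8 CPM (log2 change 7.13 ± 0.09). In both genes the groups were far apart and the spread within each group was small. Lyz2, the macrophage lysozyme, was at 4.63, 4.18 and 3.79 CPM before and 172, 171 and 167 CPM after culture (log2 change 5.35 ± 0.06). Mmp13, a collagenase, was at 0.408, 0.169 and 0.156 CPM before and 20.0, 19.0 and 19.2 CPM after it (log2 change 6.32 ± 0.16). Gm10503, a long non-coding RNA gene, had no count in any Cap_B library and reached 8.82, 8.64 and 7.99 CPM in Cap_B_2D, at least 62.4-fold higher with 3 counts per library as the floor. Trim66, a tripartite motif protein, was at 0.544, 0.633 and 0.782 CPM before and 42.9, 44.7 and 47.0 CPM after culture (log2 change 6.08 ± 0.11), while Bell_B was at 1.014, 0.819 and 0.962 CPM. The other genes of this rank upward were Prkag3, Mybph, Tnnt2 and Cacna1s, all of which are expressed in striated muscle, with Stum and Chac1. The ranks downward were taken by the globin genes, Slc4a1 and Alas2 of red cells, Sox10 and Gpr17 of the glial lineage and Krt15 of epithelium. Counting did not use strand, and 18.8% of the exon bases of Spp1 and 49.9% of those of Mybph overlap another gene.

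Skeletal muscle genes rose together. All 18 listed genes of the muscle lineage were upregulated (17.9% of all genes were), with a median log2 change of 4.17 against -0.02 over all genes. Their summed level was 313 to 329 CPM in Cap_B, 5299.9 to 5651 CPM in Cap_B_2D and 1326 to 1369 CPM in Bell_B. In these bulk libraries more cells of a type and more RNA of that type per cell cannot be told apart, and the same holds for losses.

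The rise covered genes of muscle progenitors, of commitment and fusion, and of contraction. Pax7, a transcription factor of muscle progenitors, went from 3.54, 3.76 and 4.11 CPM to 34.6, 35.1 and 35.6 CPM (log2 change 3.20 ± 0.08, adjusted p = 3.43e-26), and Myod1, a myogenic determination factor, from 14.1, 12.8 and 12.9 CPM to 104.6, 103 and 111 CPM (log2 change 3.00 ± 0.05). Myog, which drives terminal differentiation, was at 24.9, 19.8 and 24.9 CPM before and at 287, 287 and 302 CPM after culture (log2 change 3.65 ± 0.05). Mymk, a membrane protein needed for the fusion of myoblasts, rose from 2.27, 3.55 and 2.27 CPM to 74.1, 79.5 and 80.9 CPM (log2 change 4.86 ± 0.08). Of the contractile genes, Acta1, the skeletal actin, was at 12.3, 11.8 and 12.2 CPM before and 325, 344 and 376 CPM after culture (log2 change 4.84 ± 0.05). Myh3, the embryonic myosin heavy chain, was at 46.6, 41.5 and 47.1 CPM before and 1137, 1146 and 1209 CPM after (log2 change 4.69 ± 0.04). Mylpf, a fast myosin light chain, was at 7.89, 9.24 and 8.61 CPM before and 258, 267 and 289.5 CPM after (log2 change 4.98 ± 0.06). No cultured library overlapped an uncultured one in any of these genes (33.5% of all genes rose without overlap). The cultured levels also exceeded Bell_B, where Acta1 stood at 85.2, 81.0 and 83.8 CPM and Myog at 67.9, 66.1 and 71.3 CPM. Ckm, the muscle creatine kinase, was close to the floor, at 0, 0 and 0.0391 CPM before and 0.218, 0.553 and 0.378 CPM after culture.

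Myogenic factors of the MyoD family bind E-boxes, and the letters CAGCTG (a palindrome, the same on both strands) were looked for in the 250 bases before the RefSeq gene start (GRCm38.p6). A window existed for 14 of the 18 muscle genes, 6 of which (42.9%) held the letters, against 12.8% of all 27025 windows. A match describes letters in this window and is no evidence of binding. The windows of Acta1 (chr8:123894776-123895025, minus strand) and Mylpf (chr7:127211358-127211607, plus strand) are printed because both genes carry the muscle result and hold 1 match each. They are given 5′ to 3′ on the gene's strand and end at the base before its start, with the match in capitals, 216 to 221 bases upstream in Acta1 and 46 to 51 bases upstream in Mylpf.
Acta1: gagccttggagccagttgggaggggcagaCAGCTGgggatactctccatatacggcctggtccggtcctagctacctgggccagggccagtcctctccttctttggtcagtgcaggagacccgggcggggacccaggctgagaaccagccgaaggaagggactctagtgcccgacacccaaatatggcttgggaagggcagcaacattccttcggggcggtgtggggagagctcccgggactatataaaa
Mylpf: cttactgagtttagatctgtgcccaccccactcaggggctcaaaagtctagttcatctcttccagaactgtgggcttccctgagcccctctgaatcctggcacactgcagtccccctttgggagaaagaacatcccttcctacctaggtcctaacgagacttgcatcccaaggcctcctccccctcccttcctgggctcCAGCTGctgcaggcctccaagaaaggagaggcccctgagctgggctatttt

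Most markers of red cells, endothelium and epithelium fell, while the lists of pericytes and glia changed in both directions. Of 13 tested erythroid genes, 12 were downregulated (background 16.6%) and Tfr2 was not called, and the summed level of the list was 3392 to 3514 CPM before and 36.3 to 41.8 CPM after culture. Hbb-bs, an adult beta globin, was at 770.0, 717 and 758 CPM in Cap_B, 4.49, 4.49 and 5.57 CPM in Cap_B_2D and 1663, 1719 and 1695 CPM in Bell_B (log2 change -7.27 ± 0.05, adjusted p = 1.51e-40). Alas2, the erythroid enzyme of heme synthesis, was at 16.6, 17.7 and 17.6 CPM before and 0.381, 0.346 and 0.252 CPM after culture (log2 change -5.70 ± 0.14). Globin genes are near copies of each other, and reads mapping to several places were not counted, so the levels of single globins are uncertain. The share of all counts in globins was 0.343 to 0.355% before and 0.00336 to 0.00387% after culture.

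Of 18 endothelial genes, 17 were downregulated, with a median log2 change of -1.24. The exception was Eng, an endothelial co-receptor that other cells also use, at 62.7, 57.9 and 61.2 CPM before and 59.3, 59.6 and 66.8 CPM after culture. Cdh5, the cadherin of endothelial junctions, went from 123, 134 and 132 CPM to 53.7, 56.7 and 55.8 CPM (log2 change -1.23 ± 0.04, adjusted p = 1.43e-23), Bell_B being at 166, 159 and 159.6 CPM. Kdr, a VEGF receptor, went from 89.2, 92.1 and 92.4 CPM to 38.0, 36.02 and 36.7 CPM (log2 change -1.31 ± 0.04). Emcn, an endothelial sialomucin, went from 33.5, 32.0 and 31.5 CPM to 8.09, 9.33 and 8.05 CPM (log2 change -1.93 ± 0.07). No library of one group reached into the range of the other for Cdh5, Kdr and Emcn (35.6% of all genes fell without overlap). The list as a whole summed to 732 to 737 CPM before and 325 to 347 CPM after culture. Of 11 tested genes of pericytes and vascular smooth muscle, Acta2 and Des were upregulated and Rgs5 and Ndufa4l2, both pericyte markers, were downregulated. Rgs5 was at 16.7, 19.1 and 17.4 CPM before and 6.23, 5.50 and 4.85 CPM after culture (log2 change -1.68 ± 0.08). Acta2 and Des are also expressed by myofibroblasts and muscle, and the pericyte list as a whole summed to 853 to 867 CPM before and 2246 to 2459.6 CPM after culture.

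Epithelial genes were detected in the uncultured part, and most of them were lower after culture. Of 19 tested genes 17 were downregulated, 2 were upregulated, and the median log2 change was -3.09 (-2.96 with Shh, which had no count after culture, at its bound). The sum of the list was 541 to 567 CPM in Cap_B, 110.2 to 111 CPM in Cap_B_2D and 894 to 925 CPM in Bell_B. Krt14, a keratin of basal epithelium, was at 82.7, 79.0 and 79.2 CPM before and 6.32, 6.36 and 6.54 CPM after culture (log2 change -3.65 ± 0.05, adjusted p = 1.08e-32). Cdh1, the epithelial cadherin, was at 14.2, 14.9 and 14.9 CPM before and 1.63, 1.59 and 1.95 CPM after it (log2 change -3.09 ± 0.10). Shh, the signal of the enamel knot, was at 0.0454, 0.0844 and 0.156 CPM before culture, had no count in any cultured library and was at 11.0, 10.1 and 10.7 CPM in Bell_B. One of the upregulated members was Sox21, a transcription factor (0.227, 0 and 0.235 CPM before, 0.463, 0.657 and 0.724 CPM after).

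Of 14 genes of Schwann cells and other glia, 10 were downregulated and 3 were upregulated. Sox10, the transcription factor that defines the glial and pigment lineages of the neural crest, went from 12.3, 12.8 and 12.9 CPM to 0.245, 0.173 and 0.346 CPM (log2 change -5.60 ± 0.15, adjusted p = 2.64e-25), and Bell_B was at 11.9, 11.3 and 11.4 CPM. The 3 upregulated members, Egr2, Ngfr and Erbb3, are also expressed outside glia. With them the list summed to 208 to 218 CPM before and 402 to 420.3 CPM after culture, Egr2 alone being at 91.0, 92.3 and 94.0 CPM before and 229, 231 and 236 CPM after. Of 12 tested neuronal genes 5 were upregulated and 2 were downregulated. Prph, an intermediate filament of peripheral neurons, was at 0.544, 0.253 and 0.352 CPM before and 10.5, 10.8 and 12.1 CPM after culture (log2 change 4.86 ± 0.19), and Tubb3, a neuronal tubulin, went from 9.07, 7.51 and 8.96 CPM to 27.96, 29.9 and 31.1 CPM (log2 change 1.80 ± 0.07). Snap25, a synaptic protein, went the other way, from 13.1, 12.9 and 14.2 CPM to 1.61, 1.35 and 1.007 CPM (log2 change -3.33 ± 0.12).

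Macrophage genes rose. Of 18 tested, 13 were upregulated and none was called lower, with a median log2 change of 0.96. The sum of the list was 149.6 to 157 CPM in Cap_B, 463 to 478 CPM in Cap_B_2D and 296 to 306 CPM in Bell_B. Lyz2, whose levels are given above, belongs to the list and makes up a large part of the rise of this sum. Trem2, a lipid-sensing receptor of macrophages, went from 1.72, 1.31 and 1.49 CPM to 12.0, 12.7 and 13.5 CPM (log2 change 3.08 ± 0.13, adjusted p = 2e-20). Adgre1, a surface receptor that defines tissue macrophages, went from 4.26, 4.09 and 4.58 CPM to 16.1, 16.8 and 14.5 CPM (log2 change 1.87 ± 0.09). Cd68, a lysosomal protein of macrophages, went from 12.2, 11.6 and 12.0 CPM to 40.9, 42.4 and 46.3 CPM (log2 change 1.85 ± 0.06). These 3 genes did not overlap between the groups (33.5% of all genes rose without overlap). Csf1r, the receptor for the growth factor Csf1, rose from 23.2, 21.8 and 26.1 CPM to 44.5, 47.2 and 47.7 CPM (log2 change 0.97 ± 0.06), and Mrc1, a scavenger receptor of resident macrophages, was not called, at 24.99, 27.4 and 24.5 CPM before and 22.5, 20.1 and 20.0 CPM after culture. Cd163, Cx3cr1, Ptprc and Aif1 were not called either. Among 3 tested fat cell genes all were upregulated, and 6 defining ones, among them Adipoq and Plin1, were too low to be tested. Of 9 tested cartilage genes 3 were upregulated and 3 were downregulated (17.9% and 16.6% of all genes were).

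**Figure D2:**
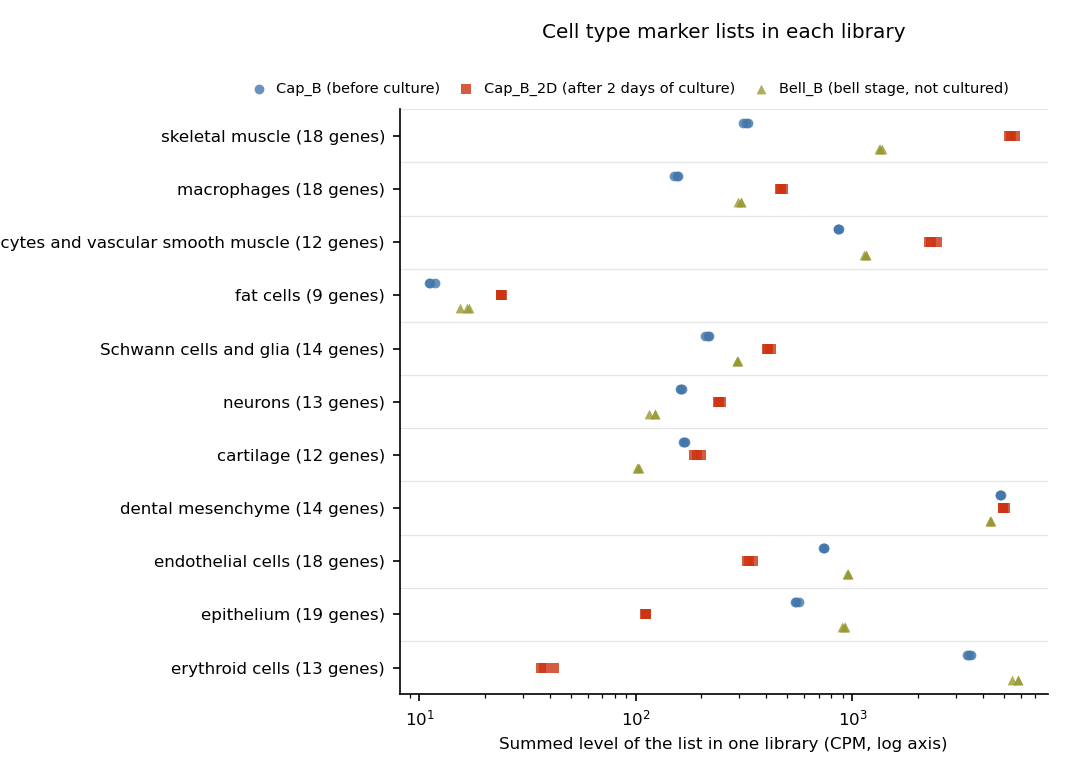
Each point is the summed level of one marker list in one library (CPM, log axis), for Cap_B (circles), Cap_B_2D (squares) and Bell_B (triangles). The erythroid, epithelial and endothelial sums fell in all 3 cultured libraries, the muscle and macrophage sums rose, and the dental mesenchyme sum was 4779 to 4840.2 CPM before and 4938 to 5062 CPM after culture. The median log2 change of the dental mesenchyme genes was -0.37.

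Genes of the integrated stress response rose. Cells short of amino acids or with unfolded protein in the endoplasmic reticulum make the transcription factor ATF4, which induces amino acid transport and synthesis genes and the factors Ddit3, Trib3 and Chac1. Of 31 such genes 24 were upregulated and none was downregulated, with a median log2 change of 1.13. Chac1, an enzyme that degrades glutathione, was at 0.726, 0.718 and 0.548 CPM before and 23.8, 25.5 and 25.7 CPM after culture (log2 change 5.23 ± 0.13, adjusted p = 5.18e-27). Trib3, a pseudokinase that restrains the response, was at 0.726, 0.718 and 0.939 CPM before and 18.4, 16.9 and 18.7 CPM after (log2 change 4.49 ± 0.13). Nupr1, a small nuclear stress protein, was at 0.771, 0.591 and 0.509 CPM before and 9.07, 9.47 and 10.1 CPM after (log2 change 3.94 ± 0.16). Aldh1l2, a mitochondrial folate enzyme, went from 7.80, 9.41 and 8.41 CPM to 115, 115 and 117 CPM (log2 change 3.76 ± 0.06), and the hormone gene Fgf21 from 0.227, 0.253 and 0.235 CPM to 2.695, 2.97 and 3.52 CPM (log2 change 3.65 ± 0.26). Cultured and uncultured libraries did not overlap in any of these 5 genes (33.5% of all genes rose without overlap). The members not called included chaperones of the endoplasmic reticulum, such as Hspa5 (log2 change 0.47) and Hsp90b1 (0.35), and Atf4 itself (0.28). These 3 were named after their values were seen, as were Herpud1, Myl9, Cnn2, Vcl and Srf in the motif searches. In Bell_B, Chac1 stood at 0.916, 0.569 and 0.564 CPM and Trib3 at 0.589, 0.605 and 0.962 CPM, near the levels before culture.

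ATF4 and C/EBP proteins bind a composite element, and the letters TGATGCAA were looked for on both strands in the same 250-base windows. A window existed for 28 of the 31 genes, and 4 of them (14.3%) held the letters, namely Chac1, Nupr1, Fgf21 and Herpud1, against 0.818% of all windows. The windows of Chac1 (chr2:119350992-119351241, plus strand) and Nupr1 (chr7:126625471-126625720, minus strand) are printed because these genes are among the largest rises of the list. The capitals mark the match, which in both reads as the reverse complement of the searched letters, 186 to 193 bases upstream in Chac1 and 103 to 110 bases upstream in Nupr1.
Chac1: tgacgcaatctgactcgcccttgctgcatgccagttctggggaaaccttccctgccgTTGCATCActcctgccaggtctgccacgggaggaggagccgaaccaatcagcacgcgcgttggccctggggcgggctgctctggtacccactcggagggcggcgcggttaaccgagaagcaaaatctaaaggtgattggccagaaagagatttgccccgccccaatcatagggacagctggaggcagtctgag
Nupr1: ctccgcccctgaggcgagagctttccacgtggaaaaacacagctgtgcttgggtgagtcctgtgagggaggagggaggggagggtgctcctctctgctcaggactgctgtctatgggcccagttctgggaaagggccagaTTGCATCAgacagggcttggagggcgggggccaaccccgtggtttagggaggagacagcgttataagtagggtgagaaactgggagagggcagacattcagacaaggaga

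Genes of oxidative stress and iron handling rose in 16 of 22 cases and none was called lower. Hmox1, which degrades heme, went from 25.2, 24.9 and 24.8 CPM to 137, 143 and 147 CPM (log2 change 2.51 ± 0.04, adjusted p = 2.26e-31). Srxn1, which repairs oxidised peroxiredoxins, went from 10.2, 8.99 and 9.00 CPM to 31.8, 32.8 and 33.0 CPM (log2 change 1.80 ± 0.06). Txnip, which binds and inhibits thioredoxin, went from 49.5, 52.3 and 52.4 CPM to 168, 163 and 166 CPM (log2 change 1.69 ± 0.04). Slc40a1, the iron exporter, went from 8.25, 8.61 and 7.43 CPM to 25.3, 23.2 and 22.9 CPM (log2 change 1.56 ± 0.07). The ranges before and after culture were apart in all 4 genes (33.5% of all genes rose without overlap). Letters of the antioxidant response element, TGACNNNGC on either strand, were present in 4 of 18 windows of this list (22.2%) and in 10.1% of all windows.

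Of 31 immediate early and stress genes, which answer growth factors, handling and heat within minutes to hours, 23 were upregulated and 2 were downregulated. Klf10, a zinc finger factor induced by TGF-beta, went from 10.4, 10.9 and 10.5 CPM to 83.8, 87.8 and 84.6 CPM (log2 change 3.01 ± 0.05, adjusted p = 3.9e-31), and Atf3, a stress-induced factor, from 23.3, 23.2 and 23.4 CPM to 109.8, 113 and 102 CPM (log2 change 2.22 ± 0.05). Egr1 was among the members not called, at 1847, 1798 and 1797 CPM before and 2384, 2429 and 2549 CPM after culture. The 2 members that fell were Hspa1a and Hspa1b, inducible heat shock proteins. Hspa1b was at 75.0, 76.5 and 73.4 CPM before and 15.7, 16.9 and 15.5 CPM after culture (log2 change -2.23 ± 0.05), and since the neighbouring genes are near copies, the split of reads between them is uncertain.

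Interferon response and antigen presentation genes rose in 22 of 30 cases, and none was called lower (median log2 change 1.14). Gbp2, an interferon-induced GTPase, was at 0.272, 0.38 and 0.391 CPM before and 4.11, 3.94 and 4.31 CPM after culture (log2 change 3.54 ± 0.21, adjusted p = 4.38e-16). Rsad2, the antiviral protein viperin, was at 1.41, 1.10 and 0.822 CPM before and 4.25, 4.11 and 3.93 CPM after (log2 change 1.90 ± 0.18). Isg15, a ubiquitin-like modifier, was at 0.59, 0.422 and 0.43 CPM before and 1.82, 1.94 and 1.86 CPM after (log2 change 1.96 ± 0.23). The uncultured and cultured libraries did not overlap in these genes (33.5% of all genes rose without overlap). Bell_B lay between them for Gbp2, at 1.83, 2.14 and 2.45 CPM. Macrophages express many of these genes too, and the macrophage sum given above rose in the same libraries. Its part in this result was not tested.

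The core of the interferon-stimulated response element, GAAANNGAA on either strand, was present in 11 of 26 windows of these genes (42.3%) and in 7.16% of all windows. The windows of Rsad2 (chr12:26456453-26456702, minus strand) and Gbp2 (chr3:142620413-142620662, plus strand) are printed as upregulated members with 1 match each. The capitals mark the match, which reads as the reverse complement of the searched letters, 111 to 119 bases upstream in Rsad2 and 50 to 58 bases upstream in Gbp2.
Rsad2: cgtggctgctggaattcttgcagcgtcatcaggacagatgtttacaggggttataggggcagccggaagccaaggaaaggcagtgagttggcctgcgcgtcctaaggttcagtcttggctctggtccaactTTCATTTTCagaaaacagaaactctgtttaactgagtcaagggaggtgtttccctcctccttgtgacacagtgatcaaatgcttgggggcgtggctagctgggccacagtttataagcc
Gbp2: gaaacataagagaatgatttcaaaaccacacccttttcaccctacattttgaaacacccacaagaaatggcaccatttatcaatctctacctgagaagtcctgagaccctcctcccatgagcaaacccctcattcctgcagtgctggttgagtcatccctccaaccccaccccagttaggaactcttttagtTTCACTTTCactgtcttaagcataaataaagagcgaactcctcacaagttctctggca

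Chemokines and inflammatory signals changed in both directions, with 22 of 34 upregulated and 6 downregulated. Ccl2, which attracts monocytes, went from 1.68, 2.07 and 2.35 CPM to 14.2, 14.6 and 14.3 CPM (log2 change 2.81 ± 0.11, adjusted p = 1.65e-20), and its relative Ccl7 from 0.181, 0.127 and 0.43 CPM to 2.31, 2.87 and 2.49 CPM (log2 change 3.31 ± 0.28). Lif, a cytokine of the interleukin 6 family, went from 0.499, 0.549 and 0.743 CPM to 4.30, 4.94 and 4.37 CPM (log2 change 2.90 ± 0.19). The direction was opposite for Cxcl12, a chemokine of mesenchyme that guides progenitor cells, which went from 426, 433 and 431 CPM to 190.0, 185 and 182 CPM (log2 change -1.21 ± 0.03). Il1b, an inflammatory cytokine of myeloid cells, was at 5.35, 5.02 and 4.46 CPM before and 0.218, 0.173 and 0.0944 CPM after culture (log2 change -4.87 ± 0.23).

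**Figure D3:**
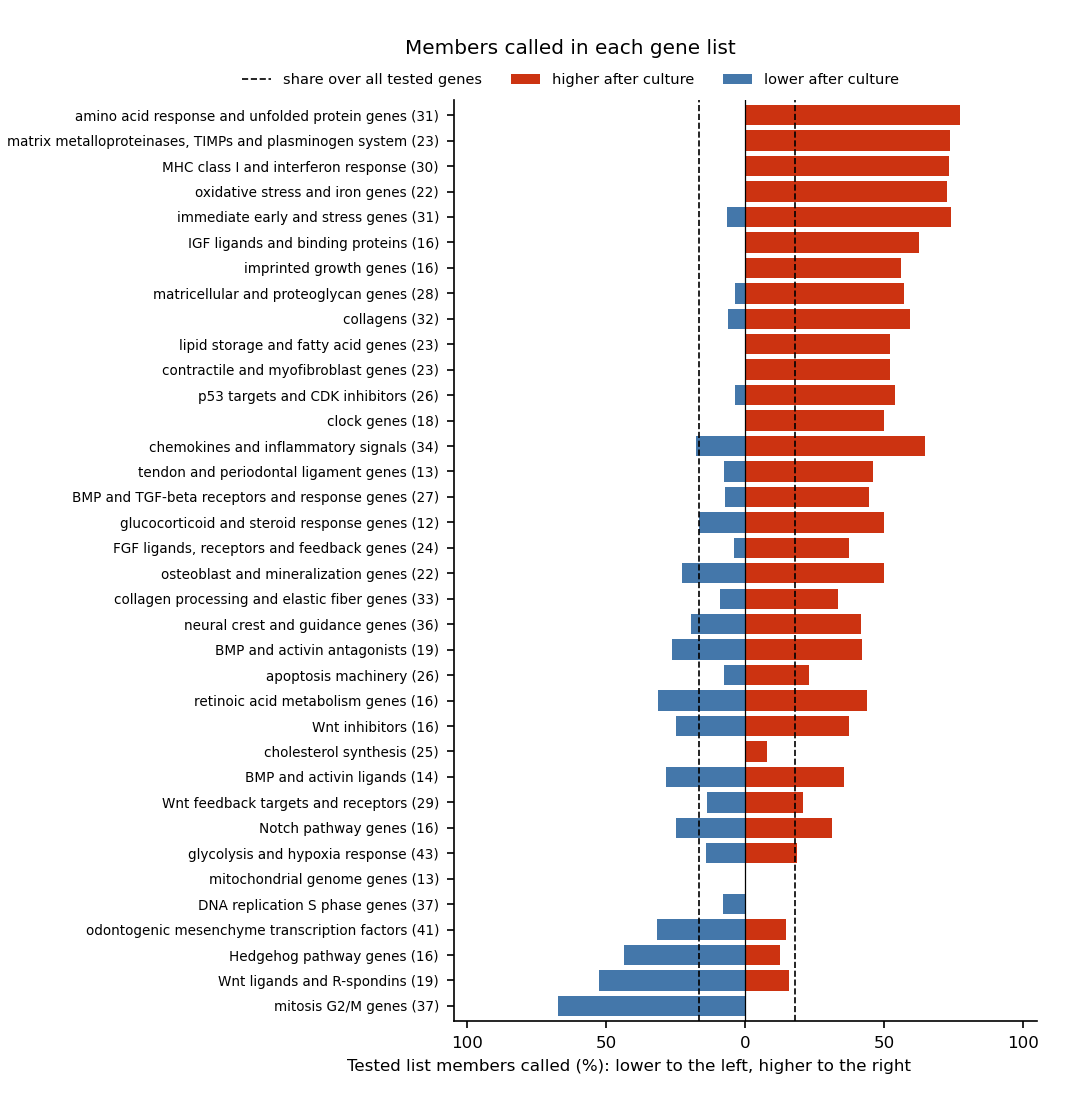
Bars give, for each of 36 gene lists (number of tested members in brackets), the percentage of members called higher (red, to the right) or lower (blue, to the left) after culture. Dashed lines mark the shares over all tested genes, 17.9% higher and 16.6% lower. Stress, protease and interferon lists stand at the top, and mitosis, Wnt ligand and Hedgehog lists at the bottom.

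Genes of mitosis fell, and most of those of DNA replication were not called. Of 37 mitosis genes, 25 were downregulated and none was upregulated. All 37 had their 3 cultured libraries below the 3 uncultured ones (35.6% of all genes did), with a median log2 change of -0.54, and with a limit of 1 on the log2 scale 2 genes were called. Mki67, the Ki-67 antigen of dividing cells, went from 357, 367 and 352 CPM to 199, 196 and 191 CPM (log2 change -0.88 ± 0.03, adjusted p = 1.02e-21). Cenpf, a kinetochore protein, went from 89.5, 94.0 and 91.1 CPM to 42.8, 42.9 and 42.1 CPM (log2 change -1.10 ± 0.04). Of 37 S phase genes 3 were called, Tk1, Tyms and Pola2, all lower (1 without a filter on low counts), and the median of the list was -0.24. Pcna, the sliding clamp of DNA replication, was not called, at 22.0, 24.3 and 23.5 CPM before and 21.8, 19.9 and 19.5 CPM after culture (log2 change -0.19 ± 0.06).

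Of 26 tested p53 targets and CDK inhibitors 14 were upregulated and 1 was downregulated. Cdkn1a, the p21 inhibitor, went from 12.1, 11.4 and 11.9 CPM to 180.4, 185 and 192 CPM (log2 change 3.97 ± 0.05, adjusted p = 1.82e-35), and the groups lay far apart. Cdkn2b, the p15 inhibitor, went from 0.454, 0.211 and 0.0782 CPM to 1.85, 2.49 and 2.74 CPM (log2 change 3.27 ± 0.31). Eda2r, a receptor for ectodysplasin A2 and a p53 target, went from 1.13, 0.76 and 0.939 CPM to 5.50, 5.22 and 4.97 CPM (log2 change 2.47 ± 0.16). Differentiating muscle also expresses Cdkn1a, and the muscle sum given above rose in the same libraries. Its part in the rise of Cdkn1a was not tested. The member that fell was Perp, a desmosome protein of epithelium, at 16.0, 12.3 and 13.7 CPM before and 4.30, 4.29 and 3.93 CPM after culture. In the apoptosis list 6 of 26 genes were upregulated and 2 downregulated (17.9% and 16.6% of all genes were). Bcl2l11, which encodes the death-promoting protein Bim, rose by 0.87 and Bcl2, which protects cells, fell by 0.84 on the log2 scale.

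Matrix-degrading enzymes and their inhibitors rose in 17 of 23 cases, with none called lower (median log2 change 1.04). Beside Mmp13, Mmp3 (stromelysin) went from 0.59, 0.675 and 0.743 CPM to 10.8, 10.9 and 10.3 CPM (log2 change 3.98 ± 0.15, adjusted p = 7.17e-22). Plaur, the urokinase receptor, went from 1.81, 1.18 and 1.72 CPM to 6.94, 7.19 and 6.86 CPM (log2 change 2.15 ± 0.14). In these genes each cultured library was above every uncultured one (33.5% of all genes rose without overlap). Bell_B was at 11.7, 13.2 and 11.7 CPM for Mmp13.

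Of 32 collagen genes 19 were upregulated and 2 were downregulated. Col5a3, a chain of fibrillar collagen V, went from 8.16, 8.48 and 7.51 CPM to 71.1, 74.0 and 79.8 CPM (log2 change 3.22 ± 0.06, adjusted p = 1.69e-29), and Col14a1, a fibril-associated collagen, from 109.8, 109.7 and 110.0 CPM to 340.3, 331 and 333 CPM (log2 change 1.61 ± 0.03). Col2a1, the cartilage collagen, was not called, at 114, 109.6 and 113 CPM before and 84.3, 88.9 and 95.1 CPM after culture. Among 33 genes of collagen processing and elastic fibers 11 were upregulated and 3 were downregulated (17.9% and 16.6% of all genes were). Ltbp2, a protein of microfibrils, rose from 18.1, 17.3 and 15.9 CPM to 163, 172 and 183 CPM (log2 change 3.34 ± 0.05), and Efemp1, a fibulin, fell from 57.4, 59.7 and 59.0 CPM to 23.3, 23.2 and 22.9 CPM (log2 change -1.34 ± 0.05). Of 28 matricellular and proteoglycan genes 16 were upregulated and 1, the proteoglycan Vcan, was downregulated. Acan, the large proteoglycan of cartilage, went from 1.18, 1.77 and 1.64 CPM to 31.7, 33.7 and 35.3 CPM (log2 change 4.44 ± 0.10), and Ccn2, a matricellular target of TGF-beta and YAP, from 17.9, 15.4 and 16.7 CPM to 159, 159 and 155 CPM (log2 change 3.24 ± 0.05).

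The contractile genes of smooth muscle and myofibroblasts rose in 12 of 23 cases and none was called lower. Acta2, the smooth muscle actin, went from 84.4, 83.7 and 83.4 CPM to 1052, 1043 and 1144 CPM (log2 change 3.69 ± 0.04, adjusted p = 4.62e-37), Bell_B being at 192, 198 and 190.3 CPM. Cnn1, a calponin of smooth muscle, went from 0.862, 0.802 and 0.782 CPM to 7.54, 7.57 and 8.53 CPM (log2 change 3.27 ± 0.15). Actg2, the enteric actin, went from 0.771, 1.39 and 1.17 CPM to 27.1, 28.5 and 27.9 CPM (log2 change 4.63 ± 0.11). Each of the 3 was separated between the groups without overlap (33.5% of all genes rose in this way). Developing skeletal muscle also expresses Acta2 and Ankrd1, and the part of muscle in these rises was not tested. The CArG box, the binding element of serum response factor, was searched for by its usual degenerate consensus. It was present in 4 of 20 windows of the list (20%), Myl9, Cnn2, Vcl and Srf, against 1.40% of all windows. Among the 9 upregulated genes with a window, only 1 held the box, so the share does not describe the genes that rose.

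Among 22 tested osteoblast and mineralization genes 11 were upregulated and 5 were downregulated. The upregulated ones included the secreted matrix proteins Spp1, Dmp1 and Ibsp, and the downregulated ones included the transcription factors Runx2, Sp7 and Dlx5. Dmp1, an acidic matrix protein of osteocytes and odontoblasts, went from 1.36, 1.013 and 1.21 CPM to 22.7, 22.7 and 22.3 CPM (log2 change 4.24 ± 0.11, adjusted p = 5.73e-26). Ibsp, bone sialoprotein, went from 35.4, 35.3 and 36.5 CPM to 122, 117 and 117 CPM (log2 change 1.73 ± 0.04). Bglap, osteocalcin, was near the floor before culture, at 0, 0.127 and 0.117 CPM, and at 5.36, 6.22 and 4.91 CPM after it. All 3 rose clear of the uncultured range (33.5% of all genes did). Runx2, the master factor of osteoblasts, fell from 245, 239.7 and 244 CPM to 123, 123 and 121 CPM (log2 change -0.99 ± 0.03), and Sp7, which acts after it, went from 62.9, 61.1 and 63.3 CPM to 38.4, 38.4 and 40.8 CPM (log2 change -0.67 ± 0.04). Dlx5 fell from 52.9, 49.98 and 51.6 CPM to 23.5, 23.0 and 23.7 CPM (log2 change -1.14 ± 0.05). Dspp, the odontoblast gene of dentin sialophosphoprotein, was too low to be tested.

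Of 13 tested genes of tendon and periodontal ligament 6 were upregulated and 1 was downregulated. Cilp, a matrix protein of cartilage and ligament, went from 3.72, 3.42 and 3.83 CPM to 68.4, 69.6 and 74.5 CPM (log2 change 4.27 ± 0.07, adjusted p = 7.38e-32), while Bell_B was at 2.75, 2.63 and 2.82 CPM. Tnmd, tenomodulin, went from 3.13, 2.62 and 2.39 CPM to 12.7, 10.9 and 11.2 CPM (log2 change 2.11 ± 0.11), and Bell_B was at 14.1, 14.8 and 13.4 CPM. Scx, the transcription factor of tendon, was not called, at 3.81, 4.26 and 3.64 CPM before and 4.52, 4.70 and 4.75 CPM after culture.

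Transcription factors of the dental mesenchyme fell more often than they rose, with 13 of 41 downregulated and 6 upregulated (16.6% and 17.9% of all genes were). The median log2 change was -0.33. Msx1, without which molars stop at the bud stage, went from 495, 477 and 486 CPM to 200.5, 207 and 216 CPM (log2 change -1.23 ± 0.04, adjusted p = 9.43e-25), below the 392, 368 and 403 CPM of Bell_B. Tfap2b, a neural crest factor, went from 183, 189 and 189.9 CPM to 94.7, 88.2 and 91.6 CPM (log2 change -1.03 ± 0.04), and Meis2, a homeobox factor, from 26.03, 27.6 and 24.3 CPM to 11.9, 12.1 and 11.2 CPM (log2 change -1.15 ± 0.07). In each of these genes all 3 cultured libraries lay below all 3 uncultured ones (35.6% of all genes did). Pax9, needed for tooth development past the bud stage, was not called, at 412, 412 and 414 CPM before and 330.1, 331 and 333 CPM after culture, nor were Barx1, Lhx8, Prrx1 and Dlx2. Osr2, which restrains tooth formation on the lingual side, fell from 450.1, 435 and 438 CPM to 284, 289 and 305 CPM (log2 change -0.59 ± 0.03). The upregulated factors were led by Sox9, a factor of cartilage and progenitor cells (12.1, 12.4 and 12.4 CPM before, 40.5, 40.8 and 42.9 CPM after, log2 change 1.75 ± 0.06), and Runx1 (13.3, 12.1 and 11.54 CPM before, 38.3, 39.5 and 37.5 CPM after, log2 change 1.64 ± 0.06).

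In the BMP and activin pathways, the antagonists and the ligands each changed in both directions. BMPs drive Msx1 and Bmp4 in the dental mesenchyme, and antagonists such as Noggin and Gremlin bind the ligands outside the cell. Of 19 tested antagonists 8 were upregulated and 5 were downregulated. Nog went from 3.58, 3.88 and 3.56 CPM to 14.7, 14.1 and 16.3 CPM (log2 change 2.03 ± 0.10, adjusted p = 8.67e-19), Bell_B being at 5.66, 5.30 and 6.401 CPM. Grem1 went from 4.04, 5.28 and 4.46 CPM to 19.7, 19.3 and 17.0 CPM (log2 change 2.02 ± 0.09), Bell_B being at 4.81, 4.84 and 5.31 CPM. Both were thus higher in each cultured library than in any other buccal library. Fst, follistatin, which binds activin, went from 12.0, 11.7 and 11.8 CPM to 41.8, 40.2 and 40.1 CPM (log2 change 1.78 ± 0.06) and was at 44.0, 47.2 and 42.1 CPM in Bell_B. Chrd, chordin, went from 32.6, 29.04 and 32.8 CPM to 67.3, 64.9 and 73.4 CPM (log2 change 1.12 ± 0.05) and its relative Chrdl2 from 1.81, 1.82 and 2.07 CPM to 4.27, 4.36 and 5.03 CPM (log2 change 1.25 ± 0.14). Bmper, a modulator of BMP that binds it in the matrix, fell from 38.6, 38.1 and 36.2 CPM to 9.67, 10.6 and 8.97 CPM (log2 change -1.95 ± 0.06).

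Of 14 tested ligands of this family 5 were upregulated and 4 were downregulated (17.9% and 16.6% of all genes were). Bmp4, the main BMP of the dental mesenchyme, went from 90.5, 87.8 and 90.1 CPM to 137, 132 and 138 CPM (log2 change 0.60 ± 0.03, adjusted p = 1.88e-16). Inhba, the activin A subunit that mesenchyme sends to the tooth epithelium, fell from 97.2, 97.4 and 94.0 CPM to 33.95, 33.3 and 31.5 CPM (log2 change -1.55 ± 0.04), while Bell_B was at 123, 128 and 125 CPM. Mstn, the muscle growth inhibitor myostatin, was at 0, 0.169 and 0.156 CPM before and 7.84, 7.47 and 7.77 CPM after culture, and the muscle genes above rose in the same libraries. Among 27 tested receptors and response genes of BMP and TGF-beta 12 were upregulated and 2 were downregulated. Id1, a direct target of BMP receptors, went from 20.3, 20.7 and 21.2 CPM to 62.2, 63.8 and 67.0 CPM (log2 change 1.63 ± 0.05). Bmpr1b, a type I BMP receptor, went from 5.22, 5.66 and 5.52 CPM to 21.9, 21.2 and 21.1 CPM (log2 change 1.97 ± 0.08).

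Among Hedgehog pathway genes, 7 of 16 tested were downregulated and 2, Gas1 and Foxf1, were upregulated, with a median log2 change of -0.34 (-0.30 with Shh, which had no count after culture, at its bound). Gli1, which is transcribed in cells that receive the signal, was at 141, 129.5 and 139 CPM in Cap_B, 30.0, 30.6 and 36.5 CPM in Cap_B_2D and 268, 258 and 276 CPM in Bell_B (log2 change -2.08 ± 0.05, adjusted p = 8.77e-27 for the change in culture). Hhip, a feedback inhibitor that binds the ligand, went from 14.2, 14.7 and 14.5 CPM to 4.82, 4.60 and 4.97 CPM (log2 change -1.59 ± 0.08). In the uncultured bell stage libraries Hhip was at 50.4, 52.5 and 49.4 CPM, so each cultured library was below every uncultured buccal library in Gli1 and Hhip. Ptch1, the main receptor, went from 139, 139 and 133 CPM to 95.9, 99.4 and 93.9 CPM (log2 change -0.51 ± 0.03), a change close to the limit that was not called with RLE normalization or DESeq2. The transducers Smo, Gli2, Gli3 and Sufu were not called. The epithelial sum, which covers the source of Shh in the germ, was 541 to 567 CPM before and 110.2 to 111 CPM after culture, and its part in this result was not tested. Letters of the GLI element, TGGGTGGTC on either strand, were in none of 11 windows of this list and in 0.211% of all windows.

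Wnt ligands and R-spondins fell in 10 of 19 cases and rose in 3. Wnt2 went from 8.57, 9.67 and 8.72 CPM to 1.77, 1.76 and 2.05 CPM (log2 change -2.27 ± 0.11, adjusted p = 5.12e-18) and was at 3.57, 4.02 and 3.85 CPM in Bell_B. Wnt4 went from 24.0, 20.8 and 19.5 CPM to 10.5, 11.0 and 11.4 CPM (log2 change -0.97 ± 0.07). Wnt3, Wnt7b and Wnt9b, which are expressed by oral and dental epithelium, fell with the epithelial sum, Wnt7b from 6.94, 7.35 and 7.94 CPM to 1.33, 2.28 and 1.38 CPM (log2 change -2.18 ± 0.15), and the part of epithelium in these was not tested. Of the R-spondins, which strengthen Wnt signals at the receptor, Rspo4 was upregulated (1.45, 1.22 and 0.743 CPM before, 2.21, 2.56 and 2.89 CPM after, log2 change 1.17 ± 0.19). The other R-spondins were not called. Rspo1 was at 36.2, 33.98 and 32.8 CPM before and 38.9, 40.9 and 43.4 CPM after culture, Rspo2 at 29.5, 28.5 and 29.2 CPM before and 25.97, 23.9 and 23.9 CPM after, and Rspo3 at 15.2, 15.4 and 14.1 CPM before and 17.1, 15.3 and 14.5 CPM after. Of 16 tested secreted Wnt inhibitors and their receptors 6 were upregulated and 4 were downregulated. Dkk3 rose from 109, 108 and 109.8 CPM to 228, 236 and 238 CPM (log2 change 1.10 ± 0.03), and Frzb, which binds Wnts, fell from 177, 171 and 174 CPM to 78.9, 77.5 and 81.0 CPM (log2 change -1.14 ± 0.03). Of 29 receptors and feedback targets 6 were upregulated and 4 were downregulated, shares near those over all genes (17.9% and 16.6%), and Lef1, a nuclear mediator of the pathway, was among the latter (118, 117 and 110.3 CPM before, 69.1, 67.3 and 71.4 CPM after, log2 change -0.73 ± 0.04).

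**Figure D4:**
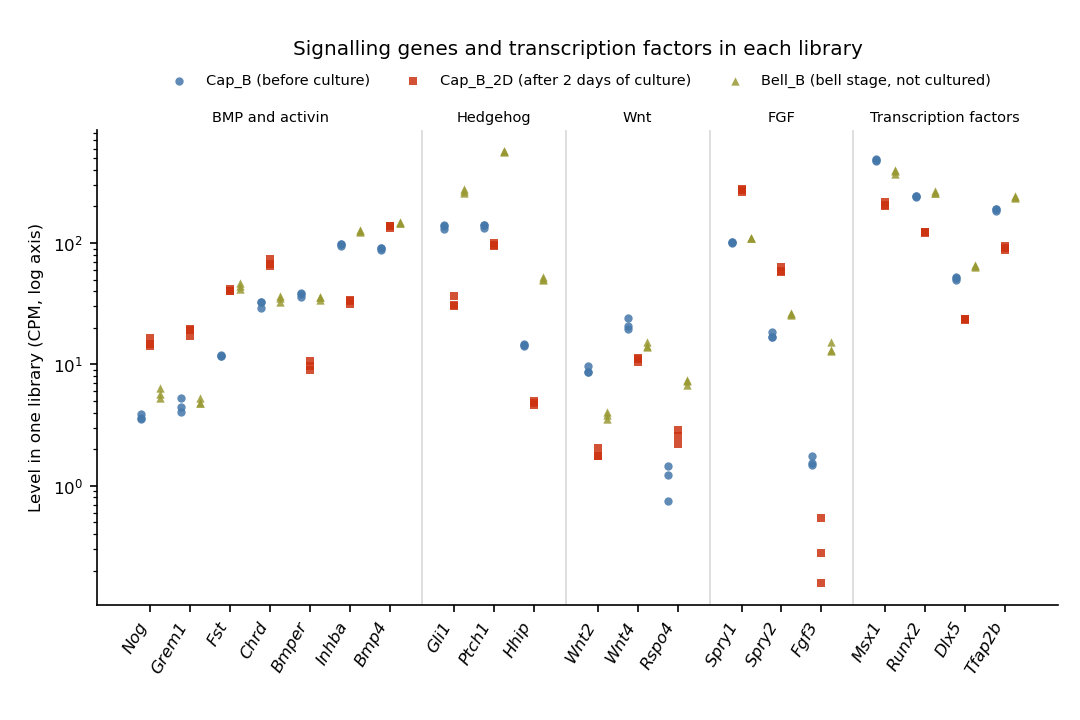
Each point is one library (CPM, log axis) for Cap_B (circles), Cap_B_2D (squares) and Bell_B (triangles), with genes grouped by pathway on the x axis. Nog and Grem1 were higher and the Hedgehog targets Gli1 and Hhip lower in the cultured libraries than in either uncultured group.

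Of 24 tested FGF ligands, receptors and feedback genes 9 were upregulated and 1 was downregulated (17.9% and 16.6% of all genes were). Spry1, an intracellular inhibitor induced by FGF, went from 102, 101 and 102 CPM to 264, 276 and 280.3 CPM (log2 change 1.43 ± 0.03, adjusted p = 3.36e-27), and Spry2 from 18.6, 16.8 and 16.7 CPM to 59.2, 58.0 and 63.2 CPM (log2 change 1.79 ± 0.05). Fgfr4, a receptor that muscle progenitors express, went from 9.89, 8.70 and 9.66 CPM to 103, 107.1 and 108 CPM (log2 change 3.49 ± 0.05), beside the rise of the muscle sum, whose part was not tested. Fgf3, a signal of the dental papilla and enamel knot, fell from 1.54, 1.77 and 1.49 CPM to 0.545, 0.277 and 0.157 CPM and was at 15.3, 13.1 and 12.8 CPM in Bell_B (log2 change -2.23 ± 0.29 for the change in culture). Fgf10, the mesenchymal signal to the epithelium, was not called, at 25.9, 26.8 and 22.7 CPM before and 32.6, 32.3 and 32.6 CPM after culture.

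Notch pathway genes were called in both directions, 5 of 16 upward and 4 downward (17.9% and 16.6% of all genes were). Lfng, a glycosyltransferase that modifies Notch, went from 10.4, 10.2 and 10.4 CPM to 43.2, 45.1 and 44.3 CPM (log2 change 2.09 ± 0.06, adjusted p = 1.97e-25), and the ligand Dll1, which myoblasts also express, from 5.44, 5.61 and 5.12 CPM to 24.0, 23.7 and 25.96 CPM (log2 change 2.19 ± 0.08). Nrarp, a target of Notch, fell from 1.63, 1.52 and 1.53 CPM to 0.898, 0.657 and 0.787 CPM (log2 change -0.98 ± 0.21). Of 16 retinoic acid genes 7 were upregulated and 5 were downregulated. Aldh1a2, a synthesising enzyme of mesenchyme, fell from 47.0, 48.4 and 47.5 CPM to 21.3, 24.3 and 20.5 CPM (log2 change -1.12 ± 0.05).

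Of 16 genes of IGF ligands, receptors, binding proteins and their regulators 10 were upregulated and none was downregulated. Igfbp7 went from 12.5, 11.9 and 12.4 CPM to 83.8, 80.3 and 85.0 CPM (log2 change 2.76 ± 0.05, adjusted p = 3.02e-30) and Igfbp3 from 228, 231 and 231 CPM to 733, 726 and 708 CPM (log2 change 1.65 ± 0.03). Stc2, which blocks the protease that frees IGF, went from 2.68, 3.04 and 3.29 CPM to 28.02, 27.96 and 27.6 CPM (log2 change 3.21 ± 0.08). The ligands Igf1 and Igf2 were not called, Igf2 being at 492, 503 and 506 CPM before and 475, 503 and 534 CPM after culture. Of 16 imprinted growth genes, such as H19, Dlk1 and Cdkn1c, 9 were upregulated and none was downregulated. Cdkn1c, the p57 inhibitor, went from 597, 588 and 587 CPM to 1227, 1222 and 1218 CPM (log2 change 1.05 ± 0.03).

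Of 36 tested genes of the neural crest and of axon guidance 15 were upregulated and 7 were downregulated (17.9% and 16.6% of all genes were). Ntn1, the guidance cue netrin, went from 63.7, 63.8 and 64.8 CPM to 155, 160.4 and 164 CPM (log2 change 1.32 ± 0.04, adjusted p = 2.99e-25) and Bdnf, a neurotrophin, from 4.40, 4.01 and 3.64 CPM to 15.8, 14.9 and 15.3 CPM (log2 change 1.94 ± 0.09). Sema3a, which keeps axons out of the early germ, fell from 96.7, 95.5 and 95.7 CPM to 61.3, 59.6 and 56.2 CPM (log2 change -0.70 ± 0.04). Hgf, a growth factor of mesenchyme that acts on epithelium and migrating cells, fell from 11.7, 11.9 and 12.0 CPM to 6.51, 5.84 and 5.41 CPM (log2 change -1.003 ± 0.08).

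Of 18 clock genes 9 were upregulated and none was downregulated, Nr1d1 (REV-ERB alpha) from 2.81, 2.53 and 3.13 CPM to 10.4, 10.4 and 12.4 CPM (log2 change 1.97 ± 0.11, adjusted p = 8.67e-17) and Bhlhe41 from 0.816, 0.76 and 0.469 CPM to 10.2, 9.99 and 9.12 CPM (log2 change 3.85 ± 0.15). The labels give no time of day for the libraries. Among 12 genes that answer glucocorticoids and other steroids 6 were upregulated and 2 were downregulated. Klf9 went from 11.3, 11.4 and 10.5 CPM to 142, 132 and 129 CPM (log2 change 3.60 ± 0.05), and Hsd11b1, which activates glucocorticoids, was near the floor before culture at 0.0454, 0.211 and 0.0782 CPM and at 2.23, 2.00 and 2.33 CPM after it. Fkbp5 and Tsc22d3, further targets of the glucocorticoid receptor, were not called, Fkbp5 being at 36.8, 35.97 and 37.0 CPM before and 31.4, 29.5 and 32.6 CPM after culture.

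Lipid genes rose in 12 of 23 cases and none was called lower. Cd36, a fatty acid transporter that macrophages and endothelium also carry, went from 2.72, 2.91 and 2.93 CPM to 28.997, 26.2 and 26.02 CPM (log2 change 3.24 ± 0.09, adjusted p = 7.66e-25), and Pparg, the regulator of fat cells, from 0.136, 0.464 and 0.196 CPM to 1.55, 1.73 and 1.64 CPM (log2 change 2.60 ± 0.30). Cholesterol synthesis genes moved little, with 2 of 25 upregulated and none downregulated. In the glycolysis and hypoxia list 8 of 43 genes were upregulated and 6 were downregulated, shares near those over all genes (17.9% and 16.6%), and the median log2 change was -0.15. The members named here are those with large changes and do not stand for the list. Slc16a3, the lactate exporter, fell from 22.8, 21.9 and 23.0 CPM to 4.25, 4.29 and 4.25 CPM (log2 change -2.40 ± 0.07), and Pfkl, a phosphofructokinase, from 157, 151 and 155 CPM to 54.6, 59.9 and 60.9 CPM (log2 change -1.40 ± 0.04). Adm, a hypoxia-induced vasodilator, rose from 0.635, 0.633 and 0.743 CPM to 4.08, 5.25 and 4.03 CPM (log2 change 2.71 ± 0.19). None of the 13 protein genes of the mitochondrial genome was called.

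The cultured part was then set beside Bell_B, the buccal part that had developed in the embryo to the bell stage. This comparison shares the cultured libraries with the one above, and the 2 comparisons are therefore not independent. Of 21992 genes 3411 (15.5%) were higher and 3577 (16.3%) were lower in Cap_B_2D than in Bell_B. Of 31 amino acid response and unfolded protein genes 21 were called higher in the cultured part and none lower. Of 18 muscle genes 16 were called higher and 1 lower (median log2 difference 2.01). Mitosis genes were lower in 29 of 37 cases and S phase genes in 13 of 37. Cholesterol synthesis genes were called higher than in Bell_B in 15 of 25 cases. Hedgehog genes were called lower in 8 of 16 cases and higher in 2. For Gli1 the log2 difference was -3.05 ± 0.05 (adjusted p = 1.48e-31) and for Hhip -3.40 ± 0.06 (adjusted p = 3.04e-30).

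For single genes the cultured part lay close to Bell_B in some cases and far from it in others. Fst differed by -0.12 ± 0.05 and Bmp4 by -0.12 ± 0.03 on the log2 scale between Cap_B_2D and Bell_B, less than the limit for a call. Sostdc1, an inhibitor of BMP and Wnt that limits tooth number, was at 48.3, 48.0 and 53.2 CPM in Cap_B, 35.3, 34.01 and 34.6 CPM in Cap_B_2D and 225, 249.8 and 243 CPM in Bell_B, a log2 difference of -2.79 ± 0.04 between the last 2 groups (adjusted p = 5.4e-32). Pax3, a factor of neural crest and muscle progenitors, was at 17.6, 15.7 and 17.8 CPM in Cap_B_2D and 0.687, 0.961 and 1.03 CPM in Bell_B (log2 difference 4.26 ± 0.12, adjusted p = 3.65e-25), having been at 11.4, 11.0 and 10.6 CPM in Cap_B. Foxf2, a mesenchymal target of Hedgehog, was at 9.80, 9.37 and 9.19 CPM in Cap_B, 5.77, 5.63 and 6.73 CPM in Cap_B_2D and 50.5, 48.6 and 47.6 CPM in Bell_B (log2 difference from Bell_B -3.01 ± 0.06, adjusted p = 1.56e-28). Cbln4, a secreted synaptic organiser, was at 16.4, 15.0 and 14.7 CPM in the cultured part and at 0.491, 0.819 and 0.962 CPM in Bell_B (log2 difference 4.34 ± 0.13, adjusted p = 7.72e-24).

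Whether the changes differed between the sides was tested with the interaction of culture and side in one fit of Cap_B, Cap_B_2D, Cap_L and Cap_L_2D. Of 22098 genes the change was more positive in the buccal part for 1576 (7.13%) and more negative for 2246 (10.2%). The log2 change of muscle genes had a median of 4.17 in the buccal part (18 genes). In the lingual part the median was 4.07, from the fit of the interaction (17 genes). The difference was called for 5 of these 17 tested genes upward and for 4 downward. The change was more negative in the buccal part for 14 of 18 endothelial genes and more positive for none. For the epithelial list it was more negative for 14 of 19 tested genes and more positive for 1. Cdh5 had a log2 change of 0.05 in the lingual part and an interaction of -1.27 ± 0.06 (adjusted p = 9.78e-17). Some lists rose more in the lingual part. The lingual and buccal medians, from the same 2 fits, were 1.88 and 0.96 for macrophage and 1.63 and 1.14 for interferon genes. They were 1.47 and 0.73 for matricellular genes and 0.98 and 0.59 for collagens. The change was more negative in the buccal part for 11 of 18 macrophage and 11 of 30 interferon genes and more positive for none. For matricellular genes the counts were 16 and 5 of 28, for collagens 14 and 4 of 32.

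The changes of Gli1 and Hhip differed between the sides, and over the Hedgehog list the change was called more negative in the buccal part for 10 of 16 genes and more positive for none. Gli1 fell by 2.08 on the log2 scale in the buccal part and changed by 0.88 in the lingual part (interaction -2.95 ± 0.08, adjusted p = 4.79e-23). For Hhip the interaction was -3.77 ± 0.12 (adjusted p = 4.32e-21). In the lingual part 4 of the 19 epithelial genes were upregulated and 10 were downregulated, with a median log2 change of -0.50 against -3.09 in the buccal part. The share of all genes called in the lingual part was not computed. Counts called in that part, here and below, therefore have no background, and the shares given for the buccal part do not apply to them. Krt13 and Krt4, keratins with the most negative interactions, changed by 7.65 and 7.88 on the log2 scale in the lingual part. The part of epithelium in the Hedgehog difference was not tested. Wnt2 fell by 2.27 in the buccal part and changed by -0.03 in the lingual part (interaction -2.23 ± 0.13, adjusted p = 2.89e-14), and Rspo2 changed by -0.24 and 1.56 (interaction -1.79 ± 0.09, adjusted p = 9.78e-17). The rises of Grem1 and Chrdl2 were larger in the buccal part, with interactions of 0.90 ± 0.12 (adjusted p = 3.18e-07) and 0.97 ± 0.18 (adjusted p = 5.68e-05). These 2 genes do not stand for the BMP and activin antagonists. Of 19 tested antagonists the change was called more positive in the buccal part for 2 and more negative for 8 (median interaction -0.43). In the lingual part 14 of the 19 were upregulated and 1 was downregulated. For the rise of Chac1 the interaction was 0.59 ± 0.29 (adjusted p = 0.119). Over the amino acid response and unfolded protein list the change was called more positive in 8 of 31 cases and more negative in 3. For immediate early and stress genes it was called more positive in 2 of 31 cases and more negative in 16. Chemokines and inflammatory signals had a more negative change in 19 of 33 cases and a more positive one in none. Mitosis genes fell in both parts. In the lingual part 36 of 37 were called lower (median log2 change -0.89), in the buccal part 25 of 37 (median -0.54). The change was called more positive in the buccal part, a smaller fall, in 7 of 37 cases. It was more negative in none, with a median interaction of 0.32.

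**Figure D5:**
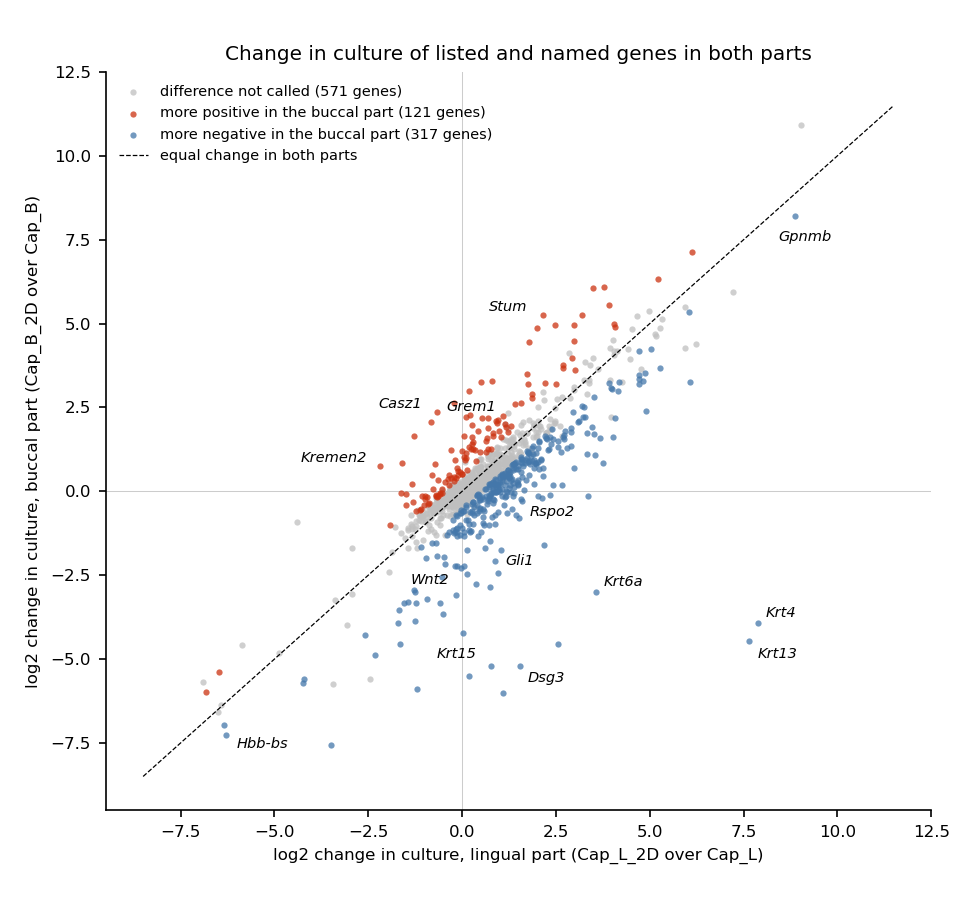
Each point is a listed or named gene, with its log2 change in culture in the lingual part on the x axis and in the buccal part on the y axis. Red and blue points are genes whose change was called more positive or more negative in the buccal part, and the dashed line marks equal change. Keratin genes lie far to the lower right and Stum, Casz1 and Kremen2 to the upper left of the line.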

How the data were processed

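Per the file header, the deposited table holds raw counts of read pairs per gene that the authors made with featureCounts (Subread 2.0.0) over the exons of the Ensembl 107 annotation of GRCm39, without strand and without reads that map to several places. The aligner and library kit differ between the sources and stay unstated here. The submitters' processing notes name Trimmomatic 0.39, FastQC 0.12.1 and DESeq2 1.40.2. Symbols for 56010 of 56748 genes came from GENCODE (Ensembl 116). No row without a gene was present.

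Counts of Cap_B, Cap_B_2D and Bell_B entered one fit of edgeR 4.0.16 (R 4.3.3; filterByExpr, TMM, glmQLFit, glmQLFTest, two-sided), and the 4 cap stage groups another for the interaction of culture and side. Adjusted p is Benjamini-Hochberg over all genes tested. The fits were run on simulated counts with 100 genes changed by 1 and 100 by 2 on the log2 scale, all well above the floor. In edgeR all of them were recovered, with 4 false calls for the change in culture and 3 for the interaction. Far fewer genes changed there than in the data. The simulation therefore cannot show how the fits behave with so many changes or near the floor. Alternatives were DESeq2 1.42.0, other size factors and filters, all 24 libraries, a replicate block and leaving out each library. With 3 libraries against 3, an exact permutation test of one gene cannot go below 0.10, so single genes were tested only in the fits across all genes.

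Of 1011 genes on 36 gene lists and 11 marker lists, 1010 were found and 983 tested. The gene lists and the named genes were chosen with earlier results of these data known. Named were the 12 genes per direction with the largest change (average log2 CPM of at least 2, libraries apart), up to 5 called members per direction of each list (average log2 CPM of at least 0) with all members of lists of at most 20, genes set down with the design, nearly all of them from the study's account of buccal or cultured parts, and the 8 per direction with the largest interaction or difference from Bell_B, except that the results of some of these genes are not reported here. Whether replicate numbers pair libraries was checked from their deviations from the group means. Promoter windows are RefSeq's (GRCm38.p6), matched by symbol, and coordinates of another build were not mixed with them.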

Additional observations from a re-analysis of the deposited data

Results flagged for a closer look

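The change in culture differed between the buccal and the lingual part, as tested with the interaction term, for 1576 genes in the positive and 2246 in the negative direction. The values below are interactions on the log2 scale, the change in the buccal part minus that in the lingual part, each with an adjusted p under 0.05 in the same fit.

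The change was most positive in the buccal part for Stum (3.12), Casz1 (3.05), Kremen2 (2.97), Insrr (2.95), Styxl2 (2.85), Gpr37 (2.83) and Pdlim3 (2.75). Kremen2, a receptor of Dickkopf proteins, rose by 0.76 in the buccal part and changed by -2.20 in the lingual part. Casz1, a zinc finger factor, was at 3.58, 3.00 and 3.48 CPM in Cap_B and 15.9, 16.9 and 19.0 CPM in Cap_B_2D, a change of 2.36 against -0.67 in the lingual part.

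It was most negative for genes of epithelium, namely Krt13 (-12.11), Krt4 (-11.80), Dsg1a (-7.10), Dsg3 (-6.72), Krt6a (-6.56), Krt15 (-5.96) and Krt19 (-5.66), and for Cyp2w1 (-4.68). Krt13 was at 0.0545, 0 and 0 CPM and Krt4 at 0.0272, 0.0346 and 0.0315 CPM in Cap_B_2D, under the floor, so the size of these interactions depends on the prior count of the fit. Krt15 went from 56.7, 55.6 and 55.2 CPM to 1.497, 1.18 and 1.82 CPM in the buccal part and changed by 0.77 on the log2 scale in the lingual part.

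For further signalling genes and 1 transcription factor of the named set, the interaction was 0.90 for Grem1, 0.97 for Chrdl2, -1.79 for Rspo2, 0.62 for Rspo3, -1.45 for Rspo4, -2.23 for Wnt2 and -0.86 for Osr2.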

How the results depend on the processing

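With a limit of 1 on the log2 scale, 2119 genes were higher and 1699 lower after culture, 1619 and 1772 against Bell_B, and 682 and 1071 in the interaction. Without a fold limit the counts were 7153 and 7615, 7139 and 7310, and 3526 and 4316. Leaving out 1 library gave 3902 to 4077 higher and 3592 to 3735 lower after culture, 3370 to 3529 and 3514 to 3680 against Bell_B, and 1491 to 1575 and 2117 to 2283 in the interaction. Over the other alternatives the counts after culture were 2970 to 4849 higher and 2731 to 3949 lower, and none was outside 1.5 times the reported count. DESeq2 called 7106 genes after culture against 7598, 7027 of them shared. Of 10327 refitted values of 521 named genes, 196 lost and 97 gained their call and 0 changed direction. The cause of these changes was not tested. Without the 100 most abundant genes 11 of the 22 collagen genes still tested were called higher, against 19 of 32. Depth limits genes near 3 counts per library, such as Ckm, Shh and Krt13.

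With the replicate number as a block, 7608 genes were called after culture, 7561 of them shared with the fit without it. Deviations of same-numbered libraries from their group means had correlations of -0.02, -0.02 and 0.02 over all tested genes. Among 7025 genes with an average log2 CPM of at least 5 they were -0.17, 0.01 and 0.27. Between differently numbered libraries they ranged from -0.39 to 0.41 in this set. The numbers were therefore not taken as a pairing.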

Other observations

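Some well-expressed genes outside the named set also moved far, and the 4 given here were chosen after their values were seen. Lgals3, the lectin galectin 3 of macrophages and other cells, was at 1.86, 2.24 and 1.64 CPM in Cap_B, 64.2, 67.1 and 69.6 CPM in Cap_B_2D and 6.41, 5.87 and 6.20 CPM in Bell_B (log2 change in culture 5.13 ± 0.08). Osmr, the receptor of oncostatin M, a cytokine related to Lif, went from 0.862, 0.549 and 0.509 CPM to 12.6, 11.8 and 10.2 CPM (log2 change 4.18 ± 0.16). In both genes all cultured libraries were above all uncultured ones of either stage. Cpa3, a protease of mast cells, fell from 11.1, 11.0 and 11.2 CPM to 1.55, 1.42 and 1.13 CPM, and Bell_B was at 48.9, 54.8 and 48.7 CPM (log2 change in culture -3.01 ± 0.12). Lyve1, a receptor of lymphatic endothelium and of some resident macrophages, fell from 2.45, 2.20 and 1.84 CPM to 0.381, 0.207 and 0.0629 CPM, with Bell_B at 12.4, 11.53 and 13.2 CPM (log2 change in culture -3.23 ± 0.29).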
